A study of Mus musculus with 66 samples.

Results

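The effect of cocaine on the nucleus accumbens (NAcc) transcriptome of iMSN-D2RKO mice was examined at ZT19, in the dark phase, 16 h after the injection. The comparison sets 3 libraries of cocaine-injected mice against 3 of saline-injected mice, out of 66 libraries in the series, and covers every gene that reached 1 FPKM in at least 1 of these 6 libraries. FPKM is the number of sequenced fragments scaled to transcript length and to the number of mapped fragments. In this way 13609 of 24138 listed genes were tested. The groups compared below were of iMSN-D2RKO and wild-type (WT) mice, all male, on a C57BL/6 background and of 3 to 5 months. Apart from the ZT3 groups, they received cocaine (20 mg/kg, intraperitoneally) or saline at ZT3, where ZT counts the hours from lights on. The ZT3 groups were harvested at the hour of injection, and their label, Saline_coc, gives no single treatment. In iMSN-D2RKO mice both Drd2 alleles are floxed and 1 copy of a D1R-Cre transgene is carried, so that the dopamine D2 receptor (D2R) is lost from indirect-pathway medium spiny neurons. The Cre is driven by the D1 receptor promoter and acts in embryonic precursors that express both receptors, and the saline group carries the same deletion. Tissue was taken as punches of frozen ventral striatum, and neither the label nor the text ties a library to a named animal. P-values therefore measure the spread between these libraries.

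Cocaine blocks the dopamine transporter and thereby raises extracellular dopamine in the striatum. Dopamine acts there through D1 receptors of direct-pathway neurons, which raise cAMP, and through D2 receptors, which lower it and are also found on dopaminergic and cholinergic cells. Calcium and cAMP signals in turn switch on immediate early genes, such as Fos, Egr and Nr4a transcription factors and the synaptic regulator Arc, within minutes of neuronal activity. Their mRNAs are short-lived, so that their level at a given hour reflects recent activity of the tissue sampled.

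The saline group was not uniform. Along the main axis of variation within groups, 13 of the 66 libraries stood apart with scores from 44.25 to 56.08, against -35.87 to 15.07 for the other 53. Saline replicates 1 and 3 (scores of 55.0 and 49.1) were among the 13, while saline replicate 2 (-18.6) and the cocaine replicates (-13.0, -10.8 and -7.98) were not. Of 9634 genes with a mean of at least 5 FPKM, 19.3% differed more than 2-fold between saline replicates 1 and 2, but only 0.810% between saline replicate 2 and cocaine replicate 1 and 0.851% between saline replicates 1 and 3. Relative sequencing depth was 0.717 and 0.723 of the median library in the set-apart saline libraries and 0.826 to 1.05 in the other 4. The main counts and lists, and many of the single genes whose difference moved by more than 1.5 times, are therefore given also without these libraries, as 3 cocaine libraries against saline replicate 2 alone, a fit in which the spread comes from the cocaine libraries.

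The set-apart saline libraries differed from saline replicate 2 along transcript length. In the quintile of genes with the shortest transcripts (median of 1281 bases) they were lower by a median of 0.43 on the log2 scale, and in the quintile with the longest (6942 bases) they were higher by 0.53. The median difference between cocaine and saline ran from 0.15 in the shortest to -0.22 in the longest quintile with all 6 libraries. With saline replicate 2 alone it ran the other way, from -0.13 to 0.12. Results for groups of long or short transcripts thus depend on which saline libraries are used.

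**Figure D1:**
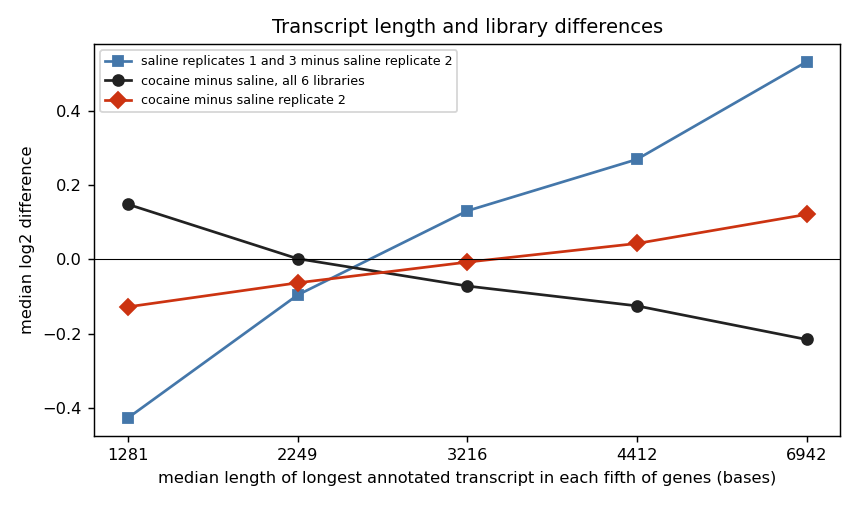
Median log2 difference (y axis) in quintiles of 9115 genes ordered by the length of their longest annotated transcript (x axis, median of each quintile in bases, evenly spaced). The difference of set-apart saline libraries from saline replicate 2 rises from -0.43 to 0.53, the cocaine effect with all 6 libraries falls from 0.15 to -0.22, and the effect against saline replicate 2 rises from -0.13 to 0.12.

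Tested gene by gene with limma on log2(FPKM + 1), 2 genes were higher after cocaine (0.0147% of those tested) and 0 lower (0.0%) at an adjusted p under 0.05. An unadjusted p under 0.05 was found for 583 genes with higher (4.28%) and 904 with lower values after cocaine (6.64%), and for 720 and 695 genes when libraries were rescaled to a common median. The count of calls rested on saline replicate 2: when it was left out, 7216 genes (53.0%) passed, 2910 higher and 4306 lower. Both saline libraries of that fit stood apart and no cocaine library did, so treatment and standing apart cannot be told apart in it. When the set-apart libraries were left out instead, 4 genes passed, with Slc17a7 higher and Mir6538, Mir6392 and Snora7a lower.

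Both genes that passed are small nucleolar RNAs, which guide pseudouridylation of other RNAs. Snora17 (chromosome 2, 26639190 to 26639321, minus strand, mm10) was listed at 0 in all 3 saline libraries and at 51.2, 55.8 and 111 FPKM after cocaine (adjusted p = 0.00202). Snora78 on chromosome 17 was also listed at 0 in the saline libraries and at 5.87, 12.3 and 7.36 FPKM after cocaine (adjusted p = 0.0286). These transcripts are 132 and 128 bases long, close to the read length of 100 bases. Snora17 was listed at 0 in 35 of the 66 libraries, and its highest value outside this comparison was 139 FPKM. Snora78 was listed at 0 in 20 libraries, and the highest value elsewhere was 39.3 FPKM. Neither passed without the set-apart libraries, where the adjusted p was 0.184 for Snora17 and 0.493 for Snora78. Over all alternatives, Snora17 passed in 14 of 18 (adjusted p from 0.000178 to 0.9997) and Snora78 in 7 of 17 (0.000692 to 0.9997).

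Immediate early genes stood higher in the cocaine libraries than in the saline libraries, without passing the adjusted threshold. Of 32 genes of the immediate early and activity list, 29 were tested. Of these, 19 had an unadjusted p under 0.05 with higher values after cocaine and 0 with lower values, where the shares among all genes were 4.28% and 6.64%. For 18 of them every cocaine library lay above every saline library (6.19% of all genes), and for none every one below (8.97%). The median log2 fold change of the list was 0.75, against -0.05 for all genes tested. Their smallest adjusted p was 0.274. Atf3, Fosl1 and Maff stayed under 1 FPKM, Maff with a highest value of 0.918 just under the limit.

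The promoters of 4 of the early genes are shown as examples. Others that were higher together with them, such as Fosl2 and Egr2, are left out. All 4 printed stretches hold the letters marked below in capitals, which not every early gene has near its start. For each, the 150 bases before the first transcription start listed by RefSeq (GRCm38.p6, which is mm10) are given 5′ to 3′ on the gene's strand, with the core of the cAMP response element in capitals (TGACG, or CGTCA when it lies on the other strand).
Fos (chr12:85473740-85473889, plus strand): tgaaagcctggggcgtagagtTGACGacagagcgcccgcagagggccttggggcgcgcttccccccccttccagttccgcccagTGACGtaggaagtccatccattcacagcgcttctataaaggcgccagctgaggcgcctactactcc
Junb (chr8:84978749-84978898, minus strand): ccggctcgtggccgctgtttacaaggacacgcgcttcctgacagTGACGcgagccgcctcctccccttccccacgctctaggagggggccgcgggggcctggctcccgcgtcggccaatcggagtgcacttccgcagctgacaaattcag
Egr4 (chr6:85513590-85513739, minus strand): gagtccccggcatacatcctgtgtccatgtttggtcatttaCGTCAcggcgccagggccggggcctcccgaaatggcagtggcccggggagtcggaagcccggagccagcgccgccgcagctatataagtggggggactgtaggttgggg
Nr4a1 (chr15:101266696-101266845, plus strand): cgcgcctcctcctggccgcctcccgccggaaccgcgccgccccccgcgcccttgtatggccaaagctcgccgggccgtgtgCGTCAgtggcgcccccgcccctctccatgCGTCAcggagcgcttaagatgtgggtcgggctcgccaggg
Within 250 bases before the first listed start, the core was present on either strand in 14 of the 23 early genes that have an entry, and in 17.9% of 27025 genes. The whole element TGACGTCA was present in 2 of the 23 and in 1.62% of all genes. The E-box CACGTG, which clock factors bind, was present in 5 of the 23 and in 6.05% of all genes. A match describes the letters in this window and not binding of a factor.

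Arc, whose product acts at the postsynaptic density and in receptor endocytosis, was at 40.1, 31.9 and 46.0 FPKM in saline and at 116, 101 and 112 FPKM after cocaine. Its groups thus lay apart by more than their spread (39.3 ± 7.09 against 109.8 ± 7.72 FPKM, SD, n = 3), a 2.79-fold difference. On the log2 scale the difference was 1.47 ± 0.17 (SE), with limma's adjusted p = 0.274, and 1.75 against saline replicate 2. Arc lies on chromosome 15 (74669083 to 74672570, minus strand).

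The AP-1 factors Fos, Fosb, Fosl2 and Junb form dimers that bind to promoters of later-responding genes. Fos was at 5.35, 2.87 and 7.62 FPKM in saline and at 20.9, 15.9 and 21.2 FPKM after cocaine, 3.66-fold higher. Junb was at 22.9, 41.8 and 36.0 FPKM in saline and at 109, 108 and 82.9 FPKM after cocaine, 2.98-fold higher. For both genes the lowest cocaine value was farther above the highest saline value than the saline libraries were from each other. Fosl2 was at 4.24 to 5.94 FPKM in saline and at 11.2 to 16.4 FPKM after cocaine, and Fosb was 2.19-fold higher. Jun overlapped between the groups (18.7 to 26.8 and 20.1 to 27.1 FPKM). The log2 difference of Fos was 1.76 with all libraries and 2.38 against saline replicate 2, and that of Junb was 1.58 and 1.23.

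Among the zinc-finger factors, Egr4 was at 17.5, 20.8 and 12.6 FPKM in saline and at 61.3, 53.2 and 38.8 FPKM after cocaine, and Egr2 at 5.06, 2.14 and 3.87 and at 12.4, 14.2 and 9.09 FPKM. The nuclear receptor Nr4a1 was at 54.0, 38.5 and 47.0 FPKM in saline and at 101, 117 and 88.5 FPKM after cocaine. These genes separated the groups in every library. Egr1 did not: it was at 281, 75.8 and 157 FPKM in saline and at 190.4, 199 and 135 FPKM after cocaine. Egr3, Nr4a2, Nr4a3, Homer1, encoding a postsynaptic scaffold, and Bdnf, encoding a neurotrophin, overlapped likewise. In these genes saline replicate 2 was the lowest library, and a set-apart saline library lay among or above the cocaine libraries. The log2 difference of Egr1 accordingly moved from 0.20 with all libraries to 1.17 against saline replicate 2, that of Nr4a2 from 0.18 to 2.05, that of Bdnf from 0.07 to 1.23 and that of Homer1 from -0.15 to 0.73.

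Of the secreted and feedback members of the list, Nptx2, Dusp6 and Gadd45b lay apart between the groups, while Bdnf, Dusp1 (11.8 to 21.0 and 18.8 to 29.0 FPKM) and Dusp4 overlapped. Nptx2, encoding a neuronal pentraxin that clusters AMPA receptors, was at 12.7, 27.5 and 10.3 FPKM in saline and at 47.2, 43.0 and 34.8 FPKM after cocaine. The phosphatase gene Dusp6, a brake on ERK signalling, was at 11.1 to 17.6 and 21.7 to 24.6 FPKM. The growth arrest gene Gadd45b was at 4.39 to 11.1 and 15.4 to 17.4 FPKM. Without the set-apart libraries the log2 difference of Nptx2 went from 1.37 to 0.57 and that of Gadd45b from 1.08 to 0.54, whereas that of Dusp6 went from 0.60 to 0.98.

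**Figure D2:**
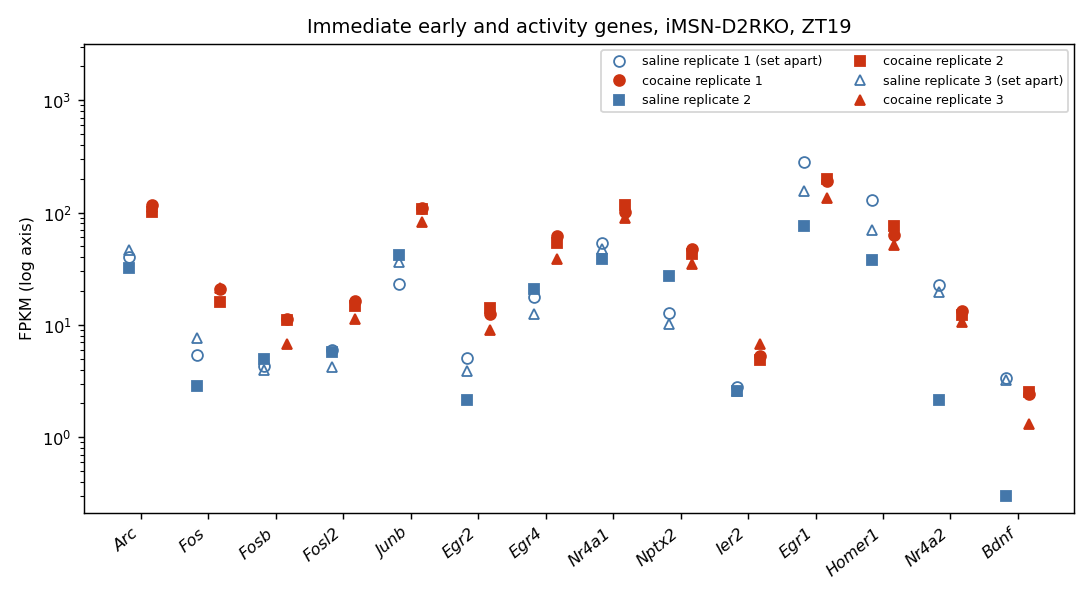
FPKM on a log axis (y) of 14 immediate early and activity genes (x) in each saline (blue) and cocaine (red) library at ZT19, where open symbols are the set-apart saline libraries. From Arc to Ier2 every cocaine library lies above every saline library, as for Arc with 101 to 116 against 31.9 to 46.0 FPKM, while the groups of Egr1, Homer1, Nr4a2 and Bdnf overlap.

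The log2 fold change was above 0 for 28 of the 29 early genes with all libraries, for 29 without the set-apart libraries and for 24 without saline replicate 2. Saline replicate 2 lay below all 3 cocaine libraries for 27 of the 29 genes, and above all 3 for 0, against 28.8% and 29.3% of all genes tested. Without the set-apart libraries, 23 of the 29 had an unadjusted p under 0.05 with higher and 0 with lower values after cocaine (4.62% and 3.88% of all genes), and the list's median was 0.89. With the library score as a covariate in a fit of all 66 libraries, 13 did so (1.15% of all genes), with a median of 0.55. In neither fit did one of them pass the adjusted threshold.

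Markers of cortical neurons also varied between these libraries. With all libraries most of them did not separate the groups. Saline replicate 2, however, lay below all 3 cocaine libraries for 8 of the 9 markers tested (28.8% of all genes). The median log2 fold change of these markers was 0.19 with all libraries and 1.82 against saline replicate 2, where the early genes had 0.75 and 0.89. Slc17a7, encoding the vesicular glutamate transporter of cortical neurons, was at 74.1, 21.3 and 85.9 FPKM in saline and at 149.9, 139 and 139 FPKM after cocaine, a log2 difference of 1.45 with all libraries and 2.69 against saline replicate 2. The 9 cortical markers summed to 42.2 FPKM in saline replicate 2, to 179 and 181 FPKM in the set-apart saline libraries and to 217 to 229.9 FPKM after cocaine. Of the 9 markers, 2 (Slc17a7 and Neurod2) lay higher in every cocaine library. Neurod6 and Tbr1 were higher in both set-apart saline libraries than in any cocaine library, and lowest in saline replicate 2. None of the 9 was listed at 0 in all 6 libraries. In bulk tissue more cells of a type and more RNA per cell cannot be told apart, and the part of cortical tissue in the values of the early genes was not tested.

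Cocaine replicate 3 held high values of markers of neighbouring tissue. Prkcd, which marks thalamic neurons among other cells, was at 222 FPKM there and at 4.59 to 11.7 FPKM in the other 5 libraries, and the 10 septal, pallidal and thalamic markers summed to 319 FPKM against 53.8 to 118. Ttr, the main transcript of choroid plexus, was at 474 FPKM in saline replicate 1 and at 53.6 FPKM in cocaine replicate 1, and under 0.3 FPKM in the other 4. Without cocaine replicate 3, 15 of the 29 early genes had an unadjusted p under 0.05 with higher values after cocaine (2.83% of all genes), and without saline replicate 1, 16 did (1.76%).

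**Figure D3:**
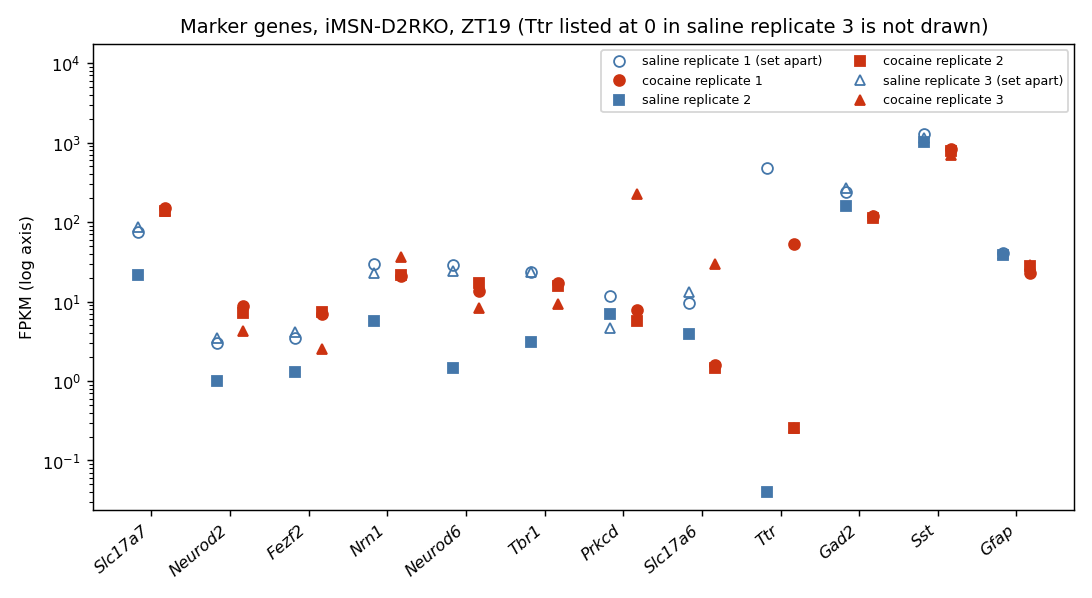
FPKM on a log axis (y) of 12 marker genes (x) in each saline (blue) and cocaine (red) library at ZT19, with set-apart saline libraries open. Slc17a7 reaches 139 to 149.9 FPKM after cocaine against 21.3 to 85.9 in saline, Neurod6 and Tbr1 are highest in the set-apart saline libraries, and Prkcd stands out at 222 FPKM in cocaine replicate 3.

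Over the whole series, the mean log2(FPKM + 1) of the 29 early genes was 4.39 ± 0.13 (SD, n = 3) in this cocaine group and 3.62 ± 0.20 in its saline group. Among the 22 group means that of this cocaine group was the second highest, after that of the WT libraries of ZT3 (4.48 ± 0.46). Other cocaine groups of the dark phase came next. These were WT at ZT23 (4.05 ± 0.15, saline 3.49 ± 0.20), WT at ZT15 (3.93 ± 0.08, saline 3.63 ± 0.11) and iMSN-D2RKO at ZT15 (3.88 ± 0.39, saline 3.69 ± 0.23). Higher levels after cocaine in the dark phase were thus not particular to this group. The 3 libraries of ZT3 in iMSN-D2RKO mice had a mean of 3.59 ± 0.18. In WT mice at ZT19 the cocaine libraries spread from 3.36 upwards, with 1 library at the level of the iMSN-D2RKO cocaine group, and the saline libraries lay between 3.13 and 3.34. Arc was at 31.6, 42.7 and 142 FPKM in these WT cocaine libraries, in which Slc17a7 was at 85.5, 28.4 and 85.6 FPKM.

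**Figure D4:**
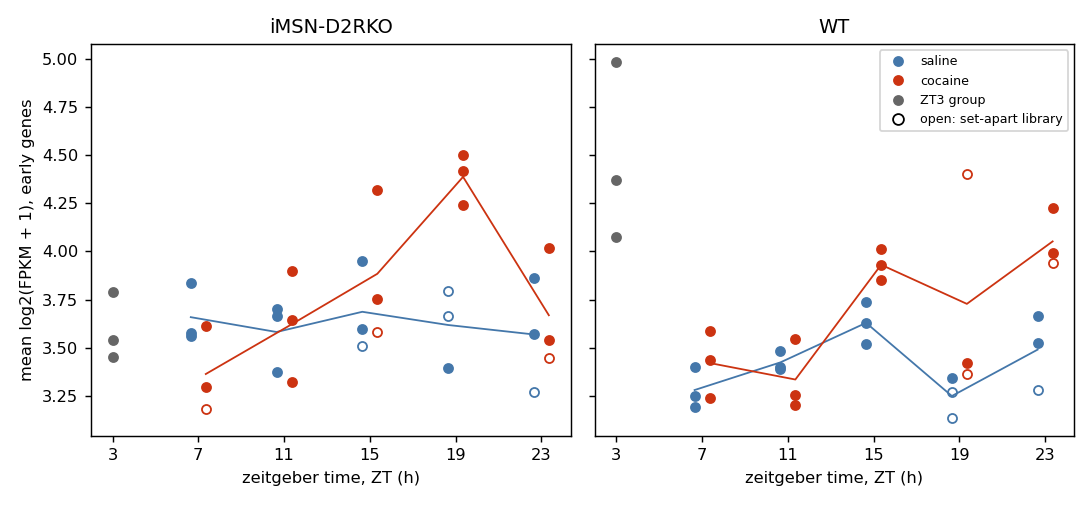
Mean log2(FPKM + 1) of 29 early genes (y axis) in every library over zeitgeber time in hours (x axis) in iMSN-D2RKO (left) and WT mice (right), with saline in blue, cocaine in red, the ZT3 groups in grey, set-apart libraries open and lines through group means. The 3 iMSN-D2RKO cocaine libraries of ZT19 lie at 4.24 to 4.50, above their saline group at 3.39 to 3.79.

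Beyond the early genes, the 15 genes with the smallest p among those higher after cocaine included Arl4d, a small GTPase, at 10.7 to 21.8 FPKM in saline and 37.0 to 41.6 FPKM after cocaine. Nxph3, a neurexin ligand, was at 5.91 to 8.12 and 13.7 to 22.1 FPKM. Cnih3, an auxiliary subunit of AMPA receptors, was at 5.42 to 7.97 and 13.0 to 16.1 FPKM. Kcnf1, a modulatory potassium channel subunit, was at 16.0 to 21.3 and 30.6 to 33.5 FPKM. Galnt9, a glycosyltransferase, was at 5.86 to 10.2 and 16.3 to 29.4 FPKM, and the transcripts E130012A19Rik and 1700003D09Rik completed the 15. All had an adjusted p of 0.375 and had higher values without the set-apart libraries, with log2 fold changes of 0.55 to 1.18. The log2 fold change of Arl4d moved from 1.43 to 0.82 and that of 1700003D09Rik from 1.24 to 0.69.

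Among the 15 genes with the smallest p of those lower after cocaine, Gad2, encoding a GABA-synthesizing enzyme, was at 238 (replicate 1), 160.3 (replicate 2) and 270.4 (replicate 3) FPKM in saline and at 119, 112 and 119 FPKM after cocaine. The log2 fold change of Gad2 was -0.90 ± 0.21 with all libraries and -0.46 against saline replicate 2. Gabra3, a GABA-A receptor subunit, was at 25.2 to 41.4 FPKM in saline and 17.9 to 20.4 FPKM after cocaine. Gad2's partner Gad1 overlapped between the groups (187 to 292 and 234 to 269.6 FPKM).

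The serotonin receptor gene Htr2c was at 26.1 to 47.5 FPKM in saline and 15.6 to 19.3 FPKM after cocaine. The purinergic receptor gene P2ry1 was at 9.19 to 12.3 and 4.86 to 6.74 FPKM, and Kctd4, of the potassium channel tetramerization domain family, at 10.4 to 19.4 and 6.70 to 7.94 FPKM. The astrocyte filament gene Gfap was at 40.9, 38.3 and 39.3 FPKM in saline and at 22.9, 27.6 and 28.5 FPKM after cocaine. Gfap and the vesicular protein gene Nrsn2 (169 to 189 and 99.3 to 127 FPKM) differed little between set-apart and other saline libraries.

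The remaining 8 genes were Ucp2, Tmem255a, Tox2, Rragb, Fam57a, Gatm, Nap1l5 and Ppp1r2. Ucp2, encoding an uncoupling protein of mitochondria, was at 17.3 to 27.8 FPKM in saline and 11.6 to 13.6 FPKM after cocaine. Gatm, the first enzyme of creatine synthesis, was at 69.7 to 89.6 and 43.6 to 59.7 FPKM. Each of the 15 had an adjusted p of 0.375, and all had lower values against saline replicate 2, with log2 fold changes of -0.93 to -0.37. The log2 fold change moved by more than 1.5 times for Htr2c (-0.92 to -0.54), Kctd4 (-0.89 to -0.46), Ucp2 (-0.80 to -0.43), Gabra3 (-0.75 to -0.37) and Fam57a (-1.06 to -0.44).

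Of 24 clock genes tested, 3 had an unadjusted p under 0.05 with higher (4.28% of all genes) and 1 with lower values after cocaine (6.64%). The groups did not overlap for 4 with higher and 1 with lower values (6.19% and 8.97% of all genes), and saline replicate 2 lay below all 3 cocaine libraries for 14 (28.8%). Per1, a repressor of the clock that cAMP and calcium signals also induce, was at 23.9, 23.9 and 24.1 FPKM in saline and at 38.4, 35.6 and 30.6 FPKM after cocaine. Every cocaine library thus exceeded a narrow saline group, and the log2 difference of Per1 was 0.52 ± 0.14 with all libraries and 0.52 against saline replicate 2 (limma's adjusted p = 0.375 and 0.556, and 0.00887 to 0.9997 over all alternatives). Cry2 was at 37.0 to 44.5 and 49.7 to 53.0 FPKM, with a log2 difference of 0.36 that became 0.19 against saline replicate 2. Dbp, a clock output factor, was at 63.4, 94.4 and 58.6 FPKM in saline and at 109, 94.1 and 101 FPKM after cocaine, so that saline replicate 2 lay among the cocaine libraries and the log2 difference went from 0.52 to 0.10. Arntl and Cry1 overlapped between the groups, with log2 differences of -0.15 ± 0.22 and 0.16 ± 0.18.

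The deleted gene was listed at substantial levels. Drd2 was at 350.4, 90.1 and 171 FPKM in saline and at 109, 119 and 81.1 FPKM after cocaine. Over the series, Drd2 ran from 78.0 to 375 FPKM (median of 107) in the 26 iMSN-D2RKO libraries that did not stand apart, and from 99.1 to 239.6 FPKM (median of 121) in 27 such WT libraries. The deposited value covers the whole gene, including what the deletion leaves, and other cells keep the receptor, so Drd2 gives little check of the genotype here. Its log2 difference after cocaine was -0.78 ± 0.46 with all libraries and 0.17 against saline replicate 2.

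Of 29 dopamine and cAMP signalling genes tested, 3 had an unadjusted p under 0.05 with higher values after cocaine and 2 with lower (4.28% and 6.64% of all genes). The adenosine receptor gene Adora2a, a mark of indirect-pathway neurons, was at 113, 165 and 65.3 FPKM in saline and at 199.8, 191 and 164 FPKM after cocaine, and its log2 difference went from 0.78 to 0.15 against saline replicate 2. Pde1b and Gnb5 were higher, and the phosphodiesterase genes Pde4b (52.3 to 101 and 41.1 to 47.5 FPKM) and Pde1c lower, in every cocaine library. Against saline replicate 2 the log2 difference went from 0.63 to 0.16 for Pde1b, from 0.61 to 0.13 for Gnb5, from -0.71 to -0.21 for Pde4b and from -0.49 to -0.19 for Pde1c. Drd1 overlapped between the groups (87.7 to 114 and 108 to 133 FPKM). The list's median turned from -0.05 with all libraries to 0.14 against saline replicate 2.

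The peptide genes of spiny neurons overlapped between the groups. Penk, the enkephalin precursor, was at 2042 to 2643 FPKM in saline and 1903 to 2282 FPKM after cocaine, and Tac1 at 210.4 to 287 and 208 to 225 FPKM. Pdyn (30.6 to 80.6 and 39.3 to 58.7 FPKM) overlapped too. Sst, the somatostatin of interneurons, was at 1293, 1017 and 1133 FPKM in saline and at 838, 788 and 689 FPKM after cocaine. The µ-opioid receptor gene Oprm1 was also lower in every cocaine library (2.05 to 2.31 against 2.65 to 5.48 FPKM), and these 2 were the members of 11 with an unadjusted p under 0.05 and lower values (6.64% of all genes). The log2 difference of Oprm1 went from -0.75 to -0.21 against saline replicate 2, and that of Sst from -0.57 to -0.40.

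Receptor and channel lists depended on the set-apart libraries. Of 14 GABA-A receptor subunit genes, 7 had an unadjusted p under 0.05 with lower and 1 with higher values after cocaine (6.64% and 4.28% of all genes), and the list's median was -0.65. Against saline replicate 2 the median was -0.05. Gabrd, of extrasynaptic receptors, was the subunit with higher values, at 56.3, 84.5 and 39.3 FPKM in saline and at 93.3, 85.2 and 108 FPKM after cocaine, a log2 difference of 0.72 ± 0.28 with all libraries and 0.17 against saline replicate 2. Of 43 potassium channel genes 4 had an unadjusted p under 0.05 with higher and 2 with lower values (4.28% and 6.64%). For 8 of the 43 every cocaine library lay above every saline library and for 0 below (6.19% and 8.97% of all genes). Saline replicate 2 lay below all 3 cocaine libraries for 24 and above for 5 (28.8% and 29.3%). The median of this list kept its direction, at 0.09 with all libraries and 0.24 against saline replicate 2. Kcnd1 overlapped (2.97 to 4.22 and 3.41 to 4.16 FPKM).

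Housekeeping lists turned direction. The median log2 difference of 66 cytosolic ribosomal protein genes was 0.35 with all libraries and -0.24 against saline replicate 2, and that of 80 nuclear oxidative phosphorylation genes was 0.36 and -0.14. Splicing factors (35 genes) went from -0.45 to 0.04. By contrast, the early genes were at 0.75 and 0.89. Against saline replicate 2, 45 of the 66 ribosomal protein genes were lower in all 3 cocaine libraries, where 29.3% of all genes were.

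**Figure D5:**
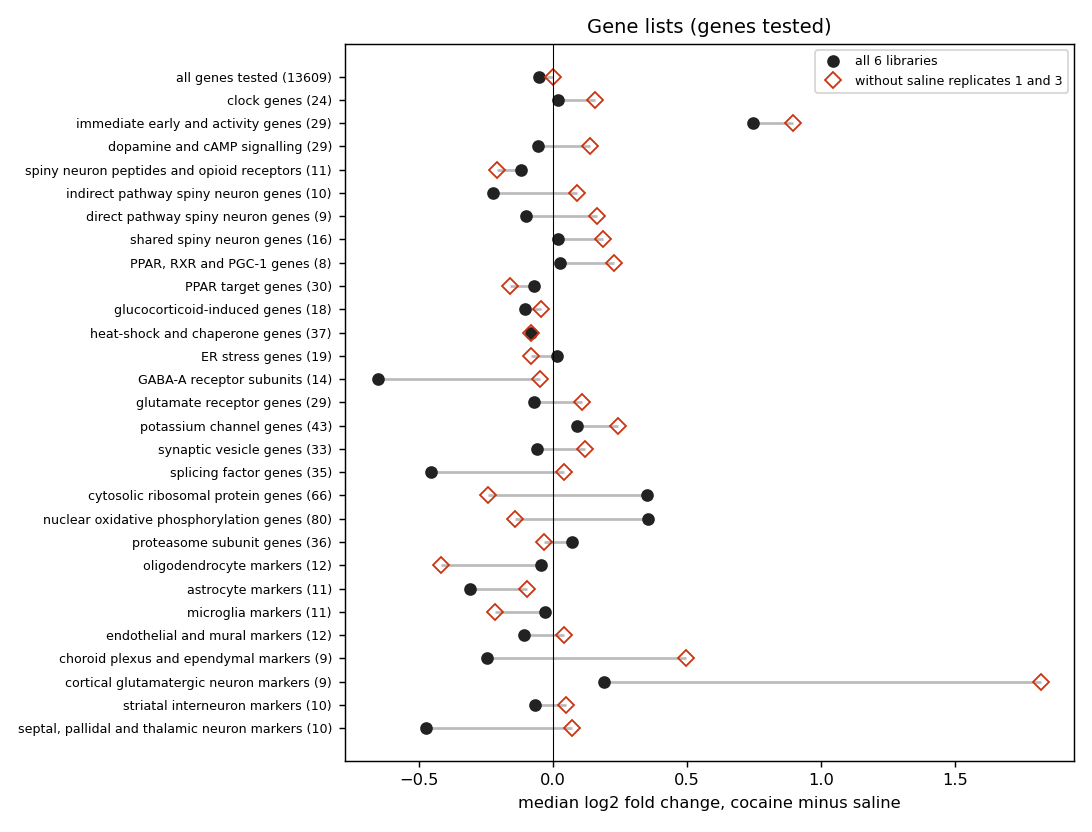
Median log2 fold change of cocaine against saline (x axis) of each gene list (y axis, genes tested in brackets), with all 6 libraries (black) and without the set-apart saline libraries (red diamonds). Immediate early genes lie at 0.75 and 0.89, whereas ribosomal protein genes move from 0.35 to -0.24, GABA-A receptor subunits from -0.65 to -0.05 and cortical markers from 0.19 to 1.82.

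Pparg, a nuclear receptor of the PPAR family, stayed at 0.282 to 0.734 FPKM in the 6 libraries and was not tested. Of 30 PPAR target genes tested, 1 had an unadjusted p under 0.05 with higher and 4 with lower values after cocaine (4.28% and 6.64% of all genes), among them Ucp2 and Cat, encoding catalase (19.7 to 29.9 and 15.7 to 17.2 FPKM). For 6 of the 30 every cocaine library lay below every saline library and for 0 above (8.97% and 6.19%), and saline replicate 2 lay above all 3 cocaine libraries for 16 and below for 2 (29.3% and 28.8%). The log2 difference of Cat went from -0.62 to -0.24 against saline replicate 2. Of 18 glucocorticoid-induced genes, 0 had higher and 2 lower values at an unadjusted p under 0.05 (4.28% and 6.64% of all genes). These 2 were Mt1 (616 to 702 and 455 to 468 FPKM) and Sgk1 (34.3 to 43.9 and 27.4 to 32.2 FPKM). The log2 difference of Sgk1 was -0.41, and -0.22 against saline replicate 2. Of 37 chaperone genes, 2 had higher and 3 lower values at that level (4.28% and 6.64%). For 6 of the 37 every cocaine library lay below every saline library and for 2 above (8.97% and 6.19%). Saline replicate 2 lay above all 3 cocaine libraries for 18 and below for 5 (29.3% and 28.8%). Bag3 was at 5.70 to 8.91 FPKM in saline and 4.43 to 4.67 FPKM after cocaine. The log2 difference of Bag3 was -0.56, and -0.27 against saline replicate 2. Of 2 cold-inducible genes, 1 lay higher in every cocaine library (6.19% of all genes). This was Rbm3, at 1.86 to 2.52 FPKM in saline and 3.47 to 3.76 FPKM after cocaine. For the other gene the groups overlapped, and saline replicate 2 lay above all 3 cocaine libraries (29.3% of all genes).

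To ask whether the cocaine effect at ZT19 depended on the genotype, its difference from the effect in WT mice at ZT19 was tested. Of 13959 genes, 0 (0.0%) passed, with 2060 at an unadjusted p under 0.05. Of the WT libraries at ZT19, 2 of each treatment stood apart, and without all set-apart libraries, which leaves 1 library in each of 3 groups, 471 genes passed. In WT mice at ZT19, 5 of the 29 early genes had an unadjusted p under 0.05 with higher values after cocaine (1.27% of all genes). In the test of the difference, 5 of 29 had a larger effect in iMSN-D2RKO mice and 0 a smaller one at an unadjusted p under 0.05 (5.37% of all genes had a larger one), and the list's median difference was 0.37. The difference for Arc was 0.47 ± 0.60 (adjusted p = 0.645), for Fos 0.37 ± 0.64 and for Nr4a1 -0.30 ± 0.45. Without the set-apart libraries these became 1.02 for Arc, 1.27 for Fos and 0.49 for Nr4a1, so that the sign for Nr4a1 turned. It turned likewise for Nr4a2 (-1.31 to 2.47), Egr1 (-0.68 to 0.91) and Homer1 (-0.26 to 1.35), among others. Dusp4 turned the other way (0.03 to -0.017), and Gadd45g stayed below 0 (-0.28 and -1.23). Nptx2 was at 6.64, 5.08 and 17.9 FPKM in WT saline and at 5.31, 5.72 and 9.40 FPKM in WT cocaine libraries. The effect on Nptx2 differed by 1.70 ± 0.61 (limma's adjusted p = 0.333), or by 2.06 without the set-apart libraries.

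The genes with the smallest p for the genotype difference had effects of opposite sign. Sema7a, a semaphorin, was at 23.8 to 31.2 FPKM in WT saline and 11.6, 11.9 and 15.8 FPKM in WT cocaine libraries, but at 19.6, 23.2 and 13.8 FPKM and 26.1, 33.5 and 54.2 FPKM in iMSN-D2RKO mice. Fbxo32, a ubiquitin ligase subunit, was likewise lower after cocaine in WT (7.24 to 8.57 and 3.45 to 5.79 FPKM) and higher in iMSN-D2RKO mice (5.39 to 5.70 and 7.29 to 8.18 FPKM). Perp and Cd200 went the other way, and Snora17 completed the 5. All had an adjusted p of 0.333, and without the set-apart libraries Fbxo32 and Snora17 passed (adjusted p = 0.0496 each).

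Compared with the effect 4 h earlier, at ZT15, 0 of 13797 genes passed (0.0%), with 391 at an unadjusted p under 0.05. The smallest p-values belonged to Cnih3, Olfm1, Galnt9, Necab3 and Faah, whose mean values were higher after cocaine at ZT19 and lower at ZT15. Cnih3 was at 7.61 to 9.41 FPKM in saline and 3.09 to 6.24 FPKM in cocaine libraries at ZT15, a difference of effects of 1.64 ± 0.30 (adjusted p = 0.672). Compared with ZT23, 0 of 13857 genes passed (0.0%), with 181 at an unadjusted p under 0.05. Here Tmem181b-ps, Galnt9, Tpbg, Sgk1 and Neat1 came first, with adjusted p = 0.655 each. The effect on the early genes was larger at ZT19 than at ZT15 for 3 and than at ZT23 for 7 of 29 at an unadjusted p under 0.05, where the shares of all genes were 1.79% and 0.621%. At ZT15 and ZT23 the list's own medians were 0.25 and 0.08, and Fos differed by 1.71 ± 0.74 from ZT15 (adjusted p = 0.672) and by 1.44 ± 0.54 from ZT23. Without the set-apart libraries Fos differed by 2.48 from ZT15 and by 1.97 from ZT23 (adjusted p = 0.797 and 1).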

How the data were processed

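The authors prepared stranded poly(A) libraries, sequenced single-end reads of 100 cycles, used TopHat 2.1.1 with Bowtie2 2.3.4 for alignment to the mm10 build, and deposited FPKM per gene from Cufflinks (version given as 0.12.1) and Cuffnorm; no read counts were analysed, and whether counting used strand is not given in the sources used here. FPKM summed to 398744 to 419703 per library here, and 12704 to 12882 genes reached 1 FPKM. Read numbers are unknown, so precision was taken from the replicates. Relative depth was estimated from 1439 rarely detected genes.

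Groups were compared with limma 3.58.1 (R 4.3.3) on log2(FPKM + 1), with a pseudocount of 1, an empirical Bayes trend and Benjamini-Hochberg adjustment over all genes tested, and differences of effects with interaction contrasts. Log2 fold changes on this scale understate those of low genes. The script was tested on simulated data. Library scores are projections of each library on the leading within-group axis (43.6% of that variance, 9584 genes). Transcript lengths and positions come from GENCODE on GRCm38, and 94.6% of genes with a mean of at least 5 FPKM had a length. Promoters come from RefSeq.

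Named genes are, among genes with a mean of at least 5 FPKM, the 15 higher and the 15 lower with the smallest p, the 5 with the smallest p for each difference, genes that the study names, any that passed, and list members with the smallest p or a described role. Slc17a7, Mir6538, Mir6392 and Snora7a were named after their values were seen, as were the cortical, thalamic and choroid plexus markers. The members and gene lists were chosen with earlier results of these data known. Alternatives covered the pseudocount, filters, scaling, the fit, quality weights, a replicate block and the libraries used.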

Additional observations from a re-analysis of the deposited data

How the results depend on the processing

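The count of genes past the threshold for the cocaine effect was 2 in the settings not named here and moved to 1 with a pseudocount of 5, with no filter, with a mean of at least 5 FPKM and with the replicate as a block, to 0 in the fit of all 66 libraries, with the library score as a covariate and in that fit without the set-apart libraries (chosen after seeing the data), to 4 without the set-apart libraries in the 6-library fit and to 6175 with array quality weights. At an unadjusted p under 0.05, 2307, 388 and 333 genes were found in the 3 settings with 0. Leaving out 1 library gave 1 to 7216 genes, with 7216 without saline replicate 2. The difference between genotypes passed for 4823 genes with weights, 471 without the set-apart libraries and 486 when these were left out of the fit of all libraries, and for 0 to 1250 when 1 library was left out, with 1250 without saline replicate 2 of iMSN-D2RKO mice. The difference from ZT15 passed for 1924 genes with weights, 2 without the set-apart libraries and 0 to 1 when 1 library was left out, and that from ZT23 for 2 without the set-apart libraries. The causes were not tested, except that fewer libraries set the spread when some are left out. The share of higher among genes at an unadjusted p under 0.05 moved from 583 of 1487 to 720 of 1415 when libraries were rescaled to a common median. The number of early genes with higher values at an unadjusted p under 0.05 stayed between 13 and 19 in fits that keep more than 1 saline library, and was within 1.5 times of 19 throughout. The share of all genes with such values ran from 1.15% with the score as a covariate to 24.4% without saline replicate 2. With a mean of at least 5 FPKM, only 23 early genes were tested, 14 of them with such values. With quality weights 17 and without saline replicate 2, 18 of the 29 passed the adjusted threshold with higher values, and without saline replicate 2, 1 passed with lower values. Of all 13609 genes, 2498 passed with higher and 3677 with lower values with weights, and 2910 and 4306 without saline replicate 2. In the latter fit both saline libraries stood apart, so treatment and standing apart cannot be told apart. Same-numbered libraries did not deviate together (correlations over genes of -0.115, 0.00879 and 0.153), so the block pairs libraries that share only a number. Of 43 genes (those with the smallest p, those that passed, those that the study names and 4 early genes) under 17 settings, 8 values turned direction: Drd2 to 0.17, Kcnd1 to -0.12 and Arntl to 0.28 without the set-apart libraries, Kcnd1 to -0.011, Arntl to 0.18 and Dbp to -0.010 with the score as a covariate, Arntl to 0.066 without saline replicate 1 and Cry1 to -0.0025 without saline replicate 3, within ranges of -0.36 to 0.066 and -0.0025 to 0.26 when 1 library was left out. A further 76 values passed and 12 no longer passed the threshold, and 631 kept direction and side. Of 43 further list members named, 13 turned direction in 40 values, among them Homer1 from -0.15 to 0.73 without the set-apart libraries and to 0.45 with the score as a covariate. With 3 libraries per group, 2 of the 3 saline libraries standing apart and no read numbers, differences below the spread of the saline group were not detectable here.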

Other observations

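Markers of glial cells were described by counts and by values of single genes. Of 12 oligodendrocyte markers, 4 had an unadjusted p under 0.05 with lower values after cocaine (6.64% of all genes), among them Mal (191 to 221 FPKM in saline and 118 to 180 FPKM after cocaine) and Opalin (37.9 to 44.5 and 27.6 to 33.3 FPKM), which build or mark myelin. The 12 markers summed to 2752 to 4251 FPKM in saline and 2744 to 4249 FPKM after cocaine, so their total overlapped. With all libraries 6 of the 12 had a log2 fold change above 0. The list's median was -0.04 with all libraries and -0.42 against saline replicate 2. Of 11 astrocyte markers, 3 had lower values at that level (again against 6.64%), namely Gfap, the gap junction gene Gja1 (64.3 to 93.7 and 54.5 to 56.3 FPKM) and the glutamate transporter gene Slc1a3 (125 to 195 and 90.1 to 121 FPKM). Of 11 microglia markers 1 did (6.64% of all genes), P2ry12, at 47.1, 16.7 and 51.8 FPKM in saline and 15.5, 16.2 and 15.4 FPKM after cocaine, where the saline libraries that stand apart held the high values. Against saline replicate 2 the log2 difference went from -0.46 to -0.20 for Gja1, from -0.58 to -0.20 for Slc1a3 and from -1.09 to -0.08 for P2ry12.

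Of 33 synaptic vesicle genes, 2 had an unadjusted p under 0.05, both with higher values after cocaine (4.28% of all genes): Stx1a, a syntaxin of the fusion machinery (27.4 to 32.9 and 33.8 to 53.4 FPKM), and Syngr1, whose log2 difference went from 0.58 to 0.08 against saline replicate 2. Of 29 glutamate receptor genes, 2 had higher and 3 lower values at that level (4.28% and 6.64%). The kainate receptor gene Grik3 was at 13.9 to 17.5 FPKM in saline and 19.1 to 21.7 FPKM after cocaine, and the NMDA receptor gene Grin3a at 6.25 to 8.77 and 3.97 to 4.81 FPKM. None of these genes passed the adjusted threshold.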
